A study of Mus musculus with 9 samples.

Results

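Chemokines are small secreted proteins that attract cells, and chemokine receptors are the membrane proteins that read them. Their genes were described across the brains of 9 mice in 3 groups. The members were all genes of the deposited table whose symbol begins with Ccl, Cxcl, Cx3cl, Xcl, Ccr, Cxcr, Cx3cr or Xcr and a digit, and that are no pseudogene. Of 35112 genes in the table, 60 carried such a symbol, and 2 of these, Ccl19-ps1 and Ccl19-ps3, were left out as pseudogenes. The remaining 58 comprised 39 ligands and 19 receptors. The rule itself uses symbols and no measured value. All mice were wild-type C57BL/6, and RNA came from tissue labelled brain, with no region, age, sex, dose or route named. Sham mice had a control treatment, ICH mice an intracerebral hemorrhage, which is bleeding into the brain tissue, and ICH+P7C3-A20 mice the hemorrhage with P7C3-A20, an aminopropyl carbazole studied as a neuroprotective compound. All were sampled 72 h after treatment, with 3 mice drawn from each group and 1 library per mouse. The labels do not say how the hemorrhage was made, and no group analysed here received P7C3-A20 without it, so its values can be read only on top of the injury.

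Chemokine receptors couple to inhibitory G proteins and steer leukocytes along gradients of their ligands. The ligands are sorted by the spacing of their first cysteines into CC, CXC, CX3C and XC families, and several sit in gene clusters that arose by duplication. In the healthy brain Cx3cl1 is made by neurons and its receptor Cx3cr1 is carried by microglia, while Cxcl12 guides precursor cells and lymphocytes through Cxcr4. After injury, glia, vessel cells and infiltrating leukocytes can make inflammatory ligands such as Ccl2, which draws monocytes through Ccr2, and Cxcl1 and Cxcl2, which draw neutrophils through Cxcr2.

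RefSeq's mouse promoter table (GRCm38.p6) held a window for 43 of the 58 members, and 4 motifs were searched on both strands in the 250 bases before each start. They were a narrow form of the kappaB motif bound by NF-kappaB (GGG, any 2 bases, then TTTCC), the AP-1 motif TGANTCA, where N is any base, the interferon response element (GAAA, any 2 bases, then GAAA) and the TATA box TATAAA. KappaB sites with other letters were not searched, so a window without a match may still hold one. No motif is contained in another. Of the members, 4 had more than 1 window, 50 windows in all. The kappaB letters stood in 6 of 43 member genes (14%), Ccl9, Ccl20, Ccr3, Cxcl1, Cxcl2 and Cxcl3. By window this was 6 of 50 (12%), against 464 of 32851 windows over all genes (1.41%). Of the 14 genes with a window that were called higher in ICH than sham, 3 held it (21.4%), and of the other 18 tested members with a window 1 did (5.56%). AP-1 was found in 6 member genes (14%), the interferon response element in 3 (6.98%) and the TATA box in 13 (30.2%). By window these were 12% (against 6.75% of all windows), 6% (against 2.98%) and 26% (against 12.4%). In the same 14 called and 18 other genes, AP-1 stood in 14.3% and 11.1%. The interferon response element stood in 7.14% and 11.1%, and the TATA box in 21.4% and 33.3%. The 3 called genes with kappaB letters were Cxcl1, Cxcl2 and Ccl9, and differences between these shares were not tested. The windows of Cxcl1, Cxcl2, Cxcl10 and Ccl9 are printed, 5′ to 3′ on the gene's strand with the matched letters in capitals. These are ligands called higher in ICH that hold a kappaB, AP-1 or interferon response match. Cxcl1 (chr5:90890995-90891244, plus strand) and Cxcl2 (chr5:90903649-90903898, plus strand) are neighbours that each held a pair of kappaB matches. Cxcl10 (chr5:92348890-92349139, minus strand) held an interferon response element, whose first base lies 213 bases before the start, and an AP-1 match at 74. Ccl9 (chr11:83578637-83578886, minus strand) held 1 kappaB match, 1 AP-1 match and 3 TATA matches, at 224, 94 and 92 bases before the start, the last pair overlapping. A match describes the letters and is not evidence of a bound site.
Cxcl1: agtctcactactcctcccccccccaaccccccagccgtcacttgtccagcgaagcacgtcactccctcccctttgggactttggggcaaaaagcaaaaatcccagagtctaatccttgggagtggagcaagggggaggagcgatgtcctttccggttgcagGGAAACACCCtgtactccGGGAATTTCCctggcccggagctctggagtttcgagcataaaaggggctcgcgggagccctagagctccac
Cxcl2: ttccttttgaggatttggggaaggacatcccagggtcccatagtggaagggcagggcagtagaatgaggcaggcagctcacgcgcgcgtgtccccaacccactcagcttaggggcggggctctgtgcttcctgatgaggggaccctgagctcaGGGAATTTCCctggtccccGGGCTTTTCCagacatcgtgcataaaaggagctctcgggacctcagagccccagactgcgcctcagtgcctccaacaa
Cxcl10: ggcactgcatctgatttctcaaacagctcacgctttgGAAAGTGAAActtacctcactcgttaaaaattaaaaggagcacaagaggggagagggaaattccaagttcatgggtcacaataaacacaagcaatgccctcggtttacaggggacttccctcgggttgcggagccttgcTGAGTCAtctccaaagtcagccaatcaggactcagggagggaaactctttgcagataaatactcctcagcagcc
Ccl9: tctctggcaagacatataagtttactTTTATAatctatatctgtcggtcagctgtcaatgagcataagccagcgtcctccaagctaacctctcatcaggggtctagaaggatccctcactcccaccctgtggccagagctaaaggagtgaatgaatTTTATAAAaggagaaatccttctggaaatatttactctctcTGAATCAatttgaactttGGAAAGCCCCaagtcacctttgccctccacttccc

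The libraries held 51537047 to 63324728 estimated counts each. Log CPM values (counts scaled to the library total) correlated at 0.959 to 0.973 within groups and 0.927 to 0.967 between groups. On the first principal component of all genes, which took 40.7% of the variance, sham libraries lay between -81.1 and -76.2 and ICH libraries between 71.8 and 80.5. ICH+P7C3-A20 2 and 3 lay at 17.4 and 18.5, and ICH+P7C3-A20 1 stood apart at -34.5. Neuronal and astrocyte markers were present in every library. Mitochondrial genes held 9.14% of the counts in sham 3, 9.74% in ICH 3 and 10.4% in ICH+P7C3-A20 2. In the other libraries they held 14.3% (ICH 1) to 18.5% (ICH+P7C3-A20 3), and the part of this difference in the values was not tested. The labels do not say that the numbers of the mice pair the libraries across groups.

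Between 38 and 40 members had a count in a sham library, against 48 to 50 in an ICH library and 42 to 47 in an ICH+P7C3-A20 library. Of the 58, 44 passed the filter on low counts (32 ligands and 12 receptors), 13 had 2 to 50 counts over all 9 libraries and were not tested, and 1, Ccr8, was at 0 everywhere. Levels are given as the authors' FPKM (fragments divided by transcript length and by the library's total) in the order of mice 1, 2 and 3. Log2 changes and adjusted p-values are from edgeR's quasi-likelihood test on the estimated counts with Benjamini-Hochberg adjustment over 21900 genes, each change with its standard error. A gene was called at an adjusted p under 0.05.

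The main pattern was a rise of inflammatory ligands and leukocyte receptors in ICH, with lower levels of many of them in the brains that also received P7C3-A20. In ICH against sham, 22 of 44 tested members were called, where 26.0% of all tested genes were, 21 of them higher (15.6% of all genes) and 1 lower (10.4%). Their median log2 change was 2.06, against 0.0020 over all tested genes. In ICH+P7C3-A20 against ICH, 15 were called (8.74% of all genes), 11 of them lower (6.05%) and 4 higher (2.69%), with a median of -1.29 against -0.0070. In ICH+P7C3-A20 against sham, 18 were called (5.32% of all genes), all of them higher (4.58%), with a median of 1.18 against 0.0266. The medians were the same with the 3 members at 0 in sham set to their bounds. None was called lower there by edgeR or by DESeq2 (0.744% of all genes), and 0 were lower at an unadjusted p under 0.05. The 3 comparisons share libraries pairwise, so their values are set side by side and not correlated. All ICH libraries were above all sham libraries for 25 members (23.0% of all genes) and below them for 1 (14.3%). All ICH+P7C3-A20 libraries were below all ICH libraries for 20 members (16.4% of all genes) and above them for 6 (10.7%). All ICH+P7C3-A20 libraries were above all sham libraries for 23 members (10.7% of all genes) and below them for 0 (5.39%). In tissue RNA, fewer cells of a type and less RNA per cell cannot be told apart.

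**Figure D1:**
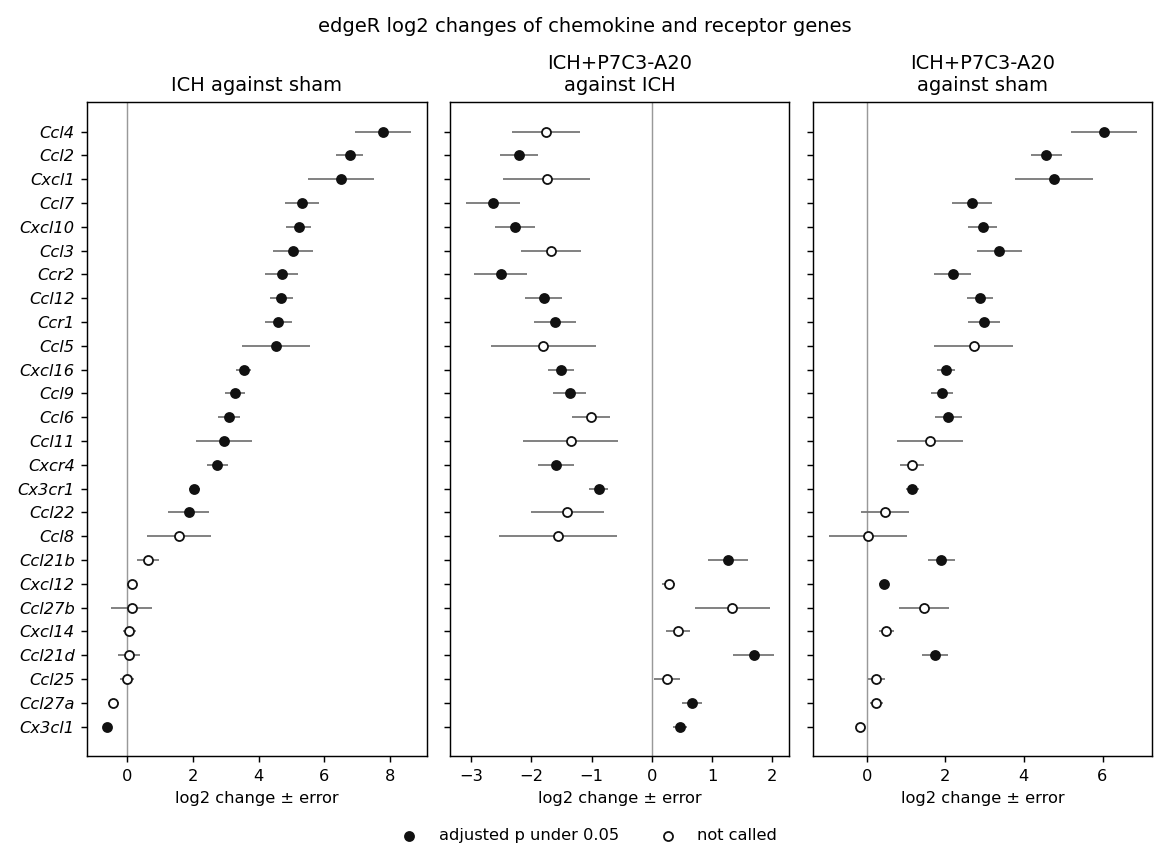
Log2 change of each member named below in the 3 comparisons (x axis, log2 units; points are edgeR estimates, bars their standard errors, filled points called at an adjusted p under 0.05). Cxcl2, Cxcr2 and Cxcr3 are not drawn because sham was at 0. Inflammatory ligands lie right of 0 in ICH against sham and left of 0 in ICH+P7C3-A20 against ICH, and Cx3cl1 lies the opposite way in both.

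The CC ligand cluster on chromosome 11 held the ligands with the largest changes. Of its 11 genes 10 were tested, and 9 were called higher in ICH than in sham (15.6% of all genes). In ICH+P7C3-A20, 4 were called lower than in ICH (6.05%) and 7 higher than in sham (4.58%). The median log2 changes of the 10 were 4.61, -1.71 and 2.71. They lie in a pair of stretches, with Ccl2, Ccl7, Ccl11, Ccl12 and Ccl8 between positions 82035571 and 82116799 and Ccl5, Ccl9, Ccl6, Ccl3 and Ccl4 between 83525778 and 83664683.

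Ccl2, the main monocyte attractant (chr11:82035571-82037453, plus strand), was at 0.201, 0.116 and 0.0755 FPKM in sham, 13.4, 16.8 and 17.2 in ICH, and at 2.09, 3.31 and 4.46 in ICH+P7C3-A20. The 3 groups did not overlap, with the treated brains between the others. Its log2 change was 6.77 ± 0.42 in ICH against sham (109-fold, adjusted p = 6.31e-06), -2.20 ± 0.32 in ICH+P7C3-A20 against ICH (adjusted p = 0.00676) and 4.57 ± 0.39 in ICH+P7C3-A20 against sham (adjusted p = 0.000258). Ccl12, a second ligand of Ccr2 (chr11:82101845-82103400), was at 0.515, 0.829 and 1.54 FPKM in sham, 19.2, 24.7 and 34.7 in ICH, and at 5.89, 7.56 and 8.10 in ICH+P7C3-A20. The groups again stood apart, and Ccl12 had the highest mean level of the inflammatory ligands in ICH. Its log2 changes in the same order were 4.69 ± 0.35 (25.7-fold, adjusted p = 1.07e-05), -1.80 ± 0.30 (adjusted p = 0.00848) and 2.89 ± 0.33 (adjusted p = 0.000927). Ccl7, which also attracts monocytes, was at 0.189, 0.0688 and 0.123 FPKM in sham, 5.27, 7.11 and 4.48 in ICH, and at 0.363, 1.11 and 1.17 in ICH+P7C3-A20. No library of a group reached those of another, and ICH+P7C3-A20 1 was the lowest of the treated brains. Its log2 changes were 5.32 ± 0.53 (adjusted p = 5.57e-05), -2.64 ± 0.45 (6.21-fold lower, adjusted p = 0.00868) and 2.68 ± 0.51 (adjusted p = 0.0127). The last call ended without ICH+P7C3-A20 3 (adjusted p = 0.0537).

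Ccl3 and Ccl4 are inflammatory ligands made by activated microglia and myeloid cells. Ccl3 (chr11:83647844-83649355, minus strand) was at 0.395, 0.571 and 0.0859 FPKM in sham, 15.0, 10.4 and 11.97 in ICH, and at 1.71, 4.60 and 5.10 in ICH+P7C3-A20. Its groups did not overlap, and ICH+P7C3-A20 1 was again the lowest treated brain. The log2 change was 5.04 ± 0.60 in ICH against sham (adjusted p = 0.000176) and 3.37 ± 0.57 in ICH+P7C3-A20 against sham (adjusted p = 0.0072), while -1.67 ± 0.50 in ICH+P7C3-A20 against ICH was not called (adjusted p = 0.0657). DESeq2 (adjusted p = 0.00645), limma on log2(FPKM + 1) (0.0113), the fit of just those groups (0.0241) and the fit without sham 3 and ICH+P7C3-A20 1 (0.0107) did call Ccl3 lower there. Ccl4 (chr11:83662584-83664683, plus strand) had a count in 1 sham library, at 0.0713 FPKM in sham 2, and was at 5.97, 5.48 and 10.8 FPKM in ICH, and at 0.850, 3.50 and 2.07 in ICH+P7C3-A20. Its log2 changes were 7.80 ± 0.85 (adjusted p = 9.3e-05), -1.76 ± 0.56 (adjusted p = 0.0792, not called) and 6.04 ± 0.84 (adjusted p = 0.00255). The second of these was called by DESeq2 (adjusted p = 0.00432), limma with pseudocounts of 1 (0.02) and 0.1 (0.044) and the fit of just those groups (0.0371). With 4 counts in all of sham, these changes carry wide error, and without sham 3 the first and the last were 7.18 and 5.42. Without sham 2 its sham counts were all 0, and no fold is given.

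Ccl9 and Ccl6, ligands of Ccr1, had smaller changes from a higher sham level. Ccl9 (chr11:83572919-83578636), whose promoter with a kappaB match is printed above, was at 0.374, 0.260 and 0.246 FPKM in sham, 2.72, 3.44 and 2.78 in ICH, and at 0.776, 1.29 and 1.31 in ICH+P7C3-A20. Its groups did not overlap, and the log2 changes were 3.28 ± 0.29 (adjusted p = 2.86e-05), -1.36 ± 0.27 (adjusted p = 0.0147) and 1.92 ± 0.28 (adjusted p = 0.00342). The lower level with P7C3-A20 was not called without ICH 2 (adjusted p = 0.0694) or without ICH+P7C3-A20 1 (adjusted p = 0.0523). Ccl6 was at 0.396, 0.702 and 0.972 FPKM in sham, 5.26, 7.09 and 5.65 in ICH, and at 2.10, 2.60 and 3.88 in ICH+P7C3-A20, 3 ranges without overlap. Its changes were 3.09 ± 0.34 (adjusted p = 0.000108), -1.01 ± 0.32 (adjusted p = 0.076, but 0.0404 without ICH+P7C3-A20 3) and 2.08 ± 0.33 (adjusted p = 0.00528). DESeq2 (adjusted p = 0.0157) and limma on log2(FPKM + 1) (0.024) called the second.

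Within the cluster, Ccl5 and Ccl11 were called in ICH against sham and in no other comparison, and the differences between comparisons were not tested. Ccl5, which attracts T cells and monocytes, was at 0.163, 0 and 0 FPKM in sham, 1.17, 1.37 and 1.95 in ICH, and at 0.276, 0.632 and 0.327 in ICH+P7C3-A20, so the groups stood apart. Its change in ICH against sham was 4.53 ± 1.03 (adjusted p = 0.00852, and 3.92 without sham 3). In ICH+P7C3-A20 it was -1.80 ± 0.87 against ICH (adjusted p = 0.237, but 0.00908 by limma on log2(FPKM + 1) and 0.0232 in the fit of just those groups) and 2.73 ± 1.01 against sham (adjusted p = 0.175, but 0.0487 by DESeq2). All 12 sham counts of Ccl5 came from sham 1, and without that library sham was at 0 and Ccl5 was called higher in ICH+P7C3-A20 (adjusted p = 0.00672). Ccl11, or eotaxin, an eosinophil attractant, was at 0.242, 0.135 and 0 FPKM in sham, 1.25, 1.08 and 0.944 in ICH, and at 0.484, 0.364 and 0.387 in ICH+P7C3-A20. Its change of 2.94 ± 0.85 in ICH (adjusted p = 0.0273) lost its call without sham 2 (adjusted p = 0.0644), ICH 1 (0.0783), ICH 2 (0.0713) or ICH 3 (0.0524), and was 3.81 without sham 1 and 2.34 without sham 3. Ccl11 was not called in the other comparisons (adjusted p = 0.339 and 0.361), though limma on log2(FPKM + 1) called it lower in ICH+P7C3-A20 than in ICH (adjusted p = 0.0128). Ccl8 was the tested gene of the cluster with no call. It was at 0, 0.216 and 0.984 FPKM in sham, 1.11, 1.44 and 0.996 in ICH, and at 0.322, 0.419 and 0.411 in ICH+P7C3-A20. Sham 3 lay near the ICH range, and the changes were 1.58 ± 0.97 (adjusted p = 0.28), -1.55 ± 0.98 (adjusted p = 0.379) and 0.03 ± 0.99 (adjusted p = 0.994).

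**Figure D2:**
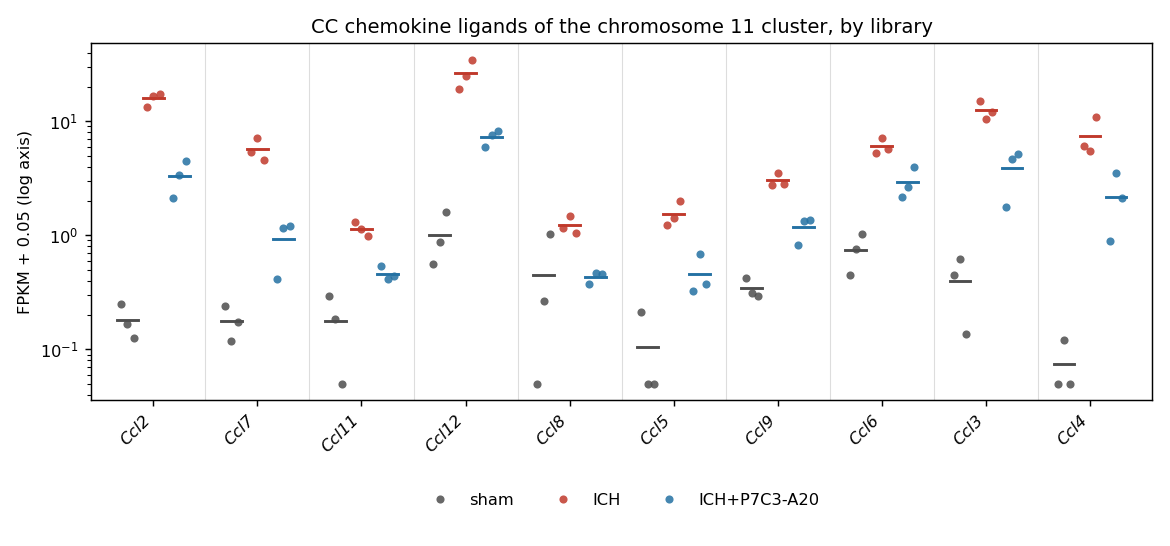
Deposited FPKM of the ligands of the chromosome 11 cluster in each library (log axis, 0.05 added; points are mice, bars group means). Ccl2 lies at 0.0755 to 0.201 FPKM in sham, 13.4 to 17.2 in ICH and 2.09 to 4.46 in ICH+P7C3-A20, and most of the others have the same order of groups.

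Among CXC ligands, the interferon-inducible Cxcl10 and the neutrophil attractants Cxcl1 and Cxcl2 of the chromosome 5 cluster were higher in ICH. Of 9 genes in that cluster 7 were tested, and these 3 were called higher in both ICH (15.6% of all genes) and ICH+P7C3-A20 (4.58%) than in sham. Cxcl10, a ligand of Cxcr3 (chr5:92346638-92348882, minus strand), was at 0.366, 0.133 and 0.211 FPKM in sham, 7.03, 10.9 and 11.6 in ICH, and at 1.93, 1.602 and 2.26 in ICH+P7C3-A20. The groups were far apart, and the treated brains differed little among themselves. Its log2 changes were 5.22 ± 0.39 (37.2-fold, adjusted p = 9.32e-06), -2.27 ± 0.33 (4.82-fold lower, adjusted p = 0.00676) and 2.95 ± 0.36 (adjusted p = 0.00116). Its exons share 133 bases with Art3 on the opposite strand, and whether the counting used strand is not given in the sources used here.

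Cxcl1 was seen in 1 sham library, with 4 counts in sham 1, and was at 0.896, 0.938 and 1.32 FPKM in ICH, and at 0.0615, 0.385 and 0.447 in ICH+P7C3-A20. The groups did not overlap, and ICH+P7C3-A20 1 was close to the sham level of 0.0231 FPKM in sham 1. Its changes were 6.51 ± 0.997 in ICH against sham (adjusted p = 0.0009), -1.75 ± 0.71 in ICH+P7C3-A20 against ICH (adjusted p = 0.163, not called, but 0.0127 by limma on log2(FPKM + 1)) and 4.76 ± 0.99 in ICH+P7C3-A20 against sham (adjusted p = 0.0198). Without sham 3 the first and last were 5.90 and 4.15, and the last was not called without sham 2 (adjusted p = 0.0609) or ICH+P7C3-A20 3 (adjusted p = 0.0752). Cxcl2 had no count in sham. It was at 0.0682, 0.143 and 0.173 FPKM in ICH, and at 0.0232, 0.101 and 0.130 in ICH+P7C3-A20, which overlap. Against a floor of 3 counts over the sham group, Cxcl2 was at least 19.5-fold higher in ICH (57 counts, adjusted p = 0.00698) and at least 14.2-fold higher in ICH+P7C3-A20 (40 counts, adjusted p = 0.034). The second call ended without sham 1 (adjusted p = 0.0835), sham 2 (0.0674), sham 3 (0.061), ICH+P7C3-A20 2 (0.0771) or ICH+P7C3-A20 3 (0.116). Between ICH+P7C3-A20 and ICH the log2 change of Cxcl2 was -0.46 ± 0.89 (adjusted p = 0.819). Cxcl3, which also held a kappaB match, stayed under 0.05 FPKM in every group mean and was not called in any comparison.

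Cxcl16, a membrane-bound ligand that is shed and is read by Cxcr6 (chr11:70453983-70459984, minus strand), had little spread among the ICH brains. It was at 0.297, 0.540 and 0.463 FPKM in sham, 5.21, 5.21 and 5.28 in ICH, and at 1.32, 2.18 and 1.84 in ICH+P7C3-A20. The ICH mice were nearly equal and no group overlapped another. The log2 changes were 3.54 ± 0.24 (11.6-fold, adjusted p = 7.41e-06), -1.51 ± 0.22 (2.85-fold lower, adjusted p = 0.00676) and 2.03 ± 0.23 (adjusted p = 0.000825). It shares 552 exon bases with Zmynd15 on the opposite strand. Ccl22, which attracts regulatory T cells, was called at 3.64-fold higher in ICH (1.86 ± 0.62, adjusted p = 0.048). Its values were 0.147, 0.0959 and 0.0571 FPKM in sham, 0.324, 0.649 and 0.187 in ICH, and at 0.157, 0.187 and 0.0941 in ICH+P7C3-A20. The ICH values were the most spread, with ICH 3 next to sham, and the change was 1.21 without ICH 2 (adjusted p = 0.253). The call also ended without sham 1 (adjusted p = 0.0524), sham 2 (0.105), sham 3 (0.118) or ICH 1 (0.0824).

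Cx3cl1, or fractalkine, was the member with the highest level in all 3 groups and the one member called lower in ICH than in sham. This neuronal ligand (chr8:94772009-94782427, plus strand) was at 119, 126 and 159 FPKM in sham, 91.5, 86.3 and 89.4 in ICH, and at 119, 126 and 111 in ICH+P7C3-A20. Every ICH library lay below every other library, and the sham and treated groups overlapped. Its log2 change was -0.64 ± 0.11 in ICH against sham (1.55-fold lower, adjusted p = 0.00215), 0.47 ± 0.11 in ICH+P7C3-A20 against ICH (1.38-fold higher, adjusted p = 0.0301) and -0.17 ± 0.11 in ICH+P7C3-A20 against sham (adjusted p = 0.504). The second call ended without ICH 1 (adjusted p = 0.0963), ICH 2 (0.0861), ICH 3 (0.129), ICH+P7C3-A20 1 (0.0897) or ICH+P7C3-A20 3 (0.0632). Summed neuron markers were also lowest in ICH, at 420 to 422 FPKM in sham, 272 to 284 in ICH and 328 to 470 in ICH+P7C3-A20. Cortical neuron markers were at 34.2, 25.9 and 90.2 FPKM in sham, 40.2, 48.4 and 51.9 in ICH, and at 188, 87.8 and 85.4 in ICH+P7C3-A20, so sham 3 and the treated brains were high. Striatal neuron markers were at 428 to 938 FPKM in sham, 308 to 402 in ICH and 245 to 449 in ICH+P7C3-A20. For them ICH and ICH+P7C3-A20 overlapped. Thalamic neuron markers overlapped in all groups, at 7.16 to 42.9, 16.7 to 42.9 and 11.2 to 28.1 FPKM in the same order. The part of these markers in the values of Cx3cl1 was not tested.

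Its receptor Cx3cr1, carried by microglia and monocytes (chr9:119901616-120068296, minus strand), moved the other way. It was at 9.23, 8.61 and 10.2 FPKM in sham, 40.2, 40.2 and 38.5 in ICH, and at 16.0, 20.8 and 25.4 in ICH+P7C3-A20, with no overlap. The changes were 2.04 ± 0.16 (4.11-fold, adjusted p = 1.5e-05), -0.88 ± 0.16 (1.84-fold lower, adjusted p = 0.0104) and 1.16 ± 0.16 (adjusted p = 0.00237). Without ICH 2 the second was not called (adjusted p = 0.0506). The gene shares 78 exon bases with Gm33858 on the opposite strand.

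Ligands with a steady level in the uninjured brain changed little or not at all in ICH. Cxcl14, a ligand of resting epithelia and some interneurons, was at 31.4, 31.0 and 28.5 FPKM in sham, 33.2, 35.99 and 28.7 in ICH, and at 49.3, 36.2 and 40.9 in ICH+P7C3-A20. The treated brains were above all others, but the changes of 0.44 ± 0.19 against ICH (adjusted p = 0.196) and 0.50 ± 0.19 against sham (adjusted p = 0.199) were not called. Cxcl12, the ligand of Cxcr4, was at 4.80, 5.38 and 7.34 FPKM in sham, 6.30, 6.32 and 7.43 in ICH, and at 6.96, 8.83 and 7.71 in ICH+P7C3-A20. All 3 ranges overlapped. It was called higher in ICH+P7C3-A20 than in sham at 0.44 ± 0.11 (1.35-fold, adjusted p = 0.0463), a call lost without sham 1 (adjusted p = 0.16), sham 2 (0.124), ICH+P7C3-A20 1 (0.0561), ICH+P7C3-A20 2 (0.103) or ICH+P7C3-A20 3 (0.172). Ccl25, which guides thymocytes and gut T cells, was at 1.15, 0.842 and 1.23 FPKM in sham, 1.27, 0.900 and 1.13 in ICH, and at 1.45, 1.07 and 1.20 in ICH+P7C3-A20. Its ranges overlapped, and it was called in no comparison (adjusted p = 0.988, 0.531 and 0.627).

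The Ccl19, Ccl21 and Ccl27 cluster on chromosome 4 held 3 of the 4 members called higher in ICH+P7C3-A20 than in ICH, the other being Cx3cl1. Ccl19 and Ccl21 bring dendritic and T cells to lymphoid tissue through Ccr7, and Ccl27 draws T cells to skin through Ccr10. Of 6 members, all tested, 3 were called higher in ICH+P7C3-A20 than in ICH (2.69% of all genes) and 2 higher than in sham (4.58%). None was called by edgeR in ICH against sham, where 26.0% of all genes were (1 at an unadjusted p under 0.05, and Ccl27a by DESeq2). The Ccl21 genes are near-identical copies of each other, and so are Ccl27a and Ccl27b, so reads may be split between copies and the values of each of these genes are uncertain. Ccl21b matched Ccl21d over 402 transcript bases at 100%, and Ccl27a matched Ccl27b over 425 bases at 99.3%.

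Ccl21b was at 1.05, 0.936 and 2.004 FPKM in sham, 1.68, 1.56 and 3.21 in ICH, and at 5.17, 4.76 and 4.68 in ICH+P7C3-A20. The treated brains stood above all others, and sham 3 and ICH 3 were the highest of their groups. Its log2 change was 1.26 ± 0.33 against ICH (2.40-fold, adjusted p = 0.04) and 1.901 ± 0.34 against sham (3.73-fold, adjusted p = 0.00877). The first ended without ICH 1 (adjusted p = 0.147), ICH 2 (0.135), ICH+P7C3-A20 1 (0.133) or ICH+P7C3-A20 3 (0.085). Ccl21d was at 0.813, 0.686 and 1.68 FPKM in sham, 0.846, 1.10 and 1.37 in ICH, and at 2.97, 3.69 and 3.70 in ICH+P7C3-A20. The treated brains again lay above the other groups, which overlapped, with changes of 1.69 ± 0.34 (3.23-fold, adjusted p = 0.0148) and 1.74 ± 0.34 (3.33-fold, adjusted p = 0.0143). Leaving out ICH 1 (adjusted p = 0.0678) or ICH 2 (0.0565) ended the first call, and leaving out sham 1 (0.0636) or ICH+P7C3-A20 3 (0.0664) the second.

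Ccl27a (chr4:41769467-41774197, minus strand) was at 13.7, 11.9 and 21.7 FPKM in sham, 12.3, 10.2 and 13.5 in ICH, and at 14.9, 23.6 and 17.1 in ICH+P7C3-A20. Treated brains were above ICH brains, while sham overlapped both. Its change against ICH was 0.67 ± 0.17 (1.59-fold, adjusted p = 0.0348), and the adjusted p ran from 0.0518 to 0.122 when any 1 of the 6 libraries was left out. In ICH against sham it was -0.43 ± 0.17 (adjusted p = 0.0866, but 0.031 without sham 2). Ccl27b was at 0.284, 1.49 and 4.48 FPKM in sham, 2.24, 2.17 and 2.36 in ICH, and at 4.05, 6.82 and 5.86 in ICH+P7C3-A20. Sham spread over the range of both other groups, and no comparison was called (adjusted p = 0.919, 0.226 and 0.251). Without sham 3 its change against sham was 2.55 (adjusted p = 0.0289). For Ccl21b, Ccl21d, Ccl27a and Ccl27b sham 3 was the highest sham library. The same held for the summed cortical neuron, striatal neuron, microglia, endothelial, astrocyte and oligodendrocyte markers, among others. For thalamic neuron and choroid plexus markers sham 3 was the lowest sham library.

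**Figure D3:**
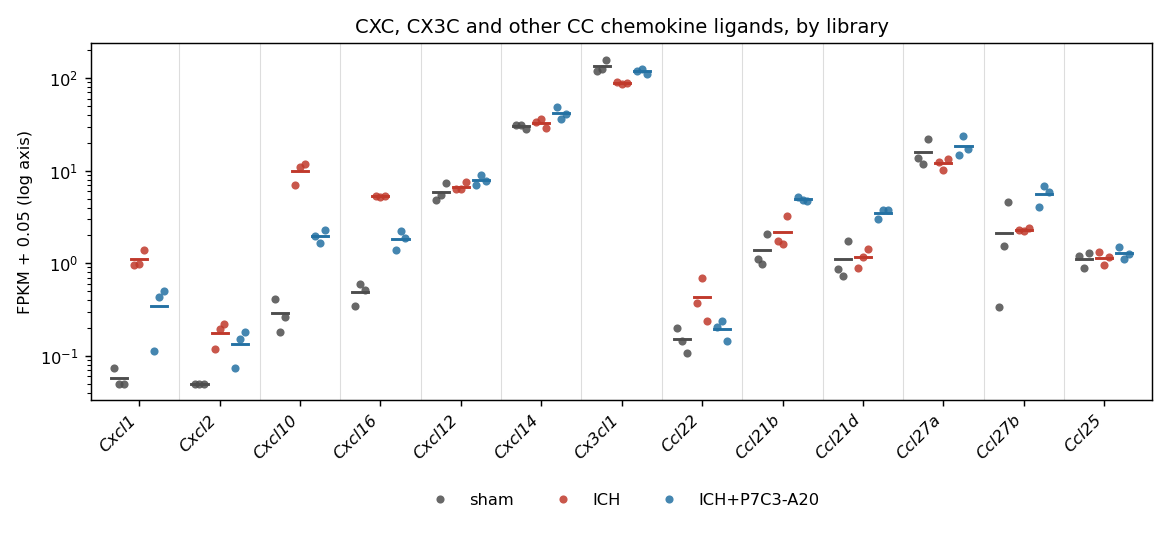
Deposited FPKM of the remaining named ligands in each library (log axis, 0.05 added; points are mice, bars group means). Cxcl10 and Cxcl16 are highest in ICH, Cx3cl1 is lowest there at 86.3 to 91.5 FPKM, and Ccl21b and Ccl21d are highest in ICH+P7C3-A20.

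Of 12 tested receptors, 7 were called higher in ICH than in sham (15.6% of all genes) and 5 lower in ICH+P7C3-A20 than in ICH (6.05%). In ICH+P7C3-A20 against sham 4 were called higher (4.58%). The median changes in these comparisons were 2.69, -1.598 and 1.16. A cluster on chromosome 9 held 8 of the 19 receptor genes, 5 of them tested, and Ccr1 and Ccr2 in it were called in all 3 comparisons.

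Ccr2, the receptor of Ccl2, Ccl7 and Ccl12 on inflammatory monocytes (chr9:124101950-124113557, plus strand), was at 0.0913, 0.0670 and 0.0202 FPKM in sham, 1.48, 2.07 and 1.48 in ICH, and at 0.216, 0.297 and 0.335 in ICH+P7C3-A20. The treated brains lay between the others without overlap and nearer to sham. Its changes were 4.70 ± 0.50 (26.01-fold, adjusted p = 8.03e-05), -2.51 ± 0.44 (5.69-fold lower, adjusted p = 0.00974) and 2.19 ± 0.47 (adjusted p = 0.0224). The last was not called without sham 2 (adjusted p = 0.0572) or ICH+P7C3-A20 3 (adjusted p = 0.0887). Ccr1, a receptor of Ccl3, Ccl6 and Ccl9 on myeloid cells (chr9:123962124-123968692), was at 0.0506, 0.0810 and 0.106 FPKM in sham, 1.53, 3.00 and 1.48 in ICH, and at 0.537, 0.655 and 0.732 in ICH+P7C3-A20. No groups overlapped, though ICH 2 was well above the other ICH brains. The changes were 4.59 ± 0.42 (24.2-fold, adjusted p = 3e-05), -1.61 ± 0.35 (3.05-fold lower, adjusted p = 0.0217) and 2.99 ± 0.40 (adjusted p = 0.00201). The second ended without ICH 2 (adjusted p = 0.0887), ICH+P7C3-A20 1 (0.0803) or ICH+P7C3-A20 2 (0.0516).

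Cxcr4, the receptor of Cxcl12 (chr1:128588199-128592293, minus strand), was at 0.727, 0.973 and 0.687 FPKM in sham, 5.50, 6.67 and 4.44 in ICH, and at 1.15, 2.75 and 1.61 in ICH+P7C3-A20. The groups stood apart. Its changes were 2.74 ± 0.32 (6.70-fold, adjusted p = 0.000142), -1.59 ± 0.30 (3.01-fold lower, adjusted p = 0.0127, or 0.0597 without ICH 2) and 1.16 ± 0.31, which was not called (adjusted p = 0.0577, or 0.0244 without ICH+P7C3-A20 1).

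Cxcr2 and Cxcr3 had no count in sham. Cxcr2, the neutrophil receptor of Cxcl1 and Cxcl2 (chr1:74153989-74161246), was at 0.0633, 0.686 and 0.116 FPKM in ICH, and at 0.0835, 0.0353 and 0.132 in ICH+P7C3-A20. ICH 2 alone held 141 of the 177 ICH counts. Against the floor of 3 counts Cxcr2 was at least 60.6-fold higher in ICH than in sham (adjusted p = 0.00597), and at least 18-fold higher without ICH 2. Its level in ICH+P7C3-A20 overlapped that of ICH (adjusted p = 0.345) and was at least 18.2-fold above sham without a call (adjusted p = 0.0583). Cxcr3, the receptor of Cxcl10 on T and NK cells (chrX:101731535-101734269), was at 0.119, 0.413 and 0.0529 FPKM in ICH, and at 0, 0.143 and 0.0528 in ICH+P7C3-A20. It was at least 23.6-fold higher in ICH than in sham (69 counts, adjusted p = 0.0277), and at least 10-fold higher without ICH 2. That call ended without any 1 of sham 1 (adjusted p = 0.0664), sham 2 (0.0591), sham 3 (0.0535), ICH 1 (0.0517) or ICH 2 (0.104).

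**Figure D4:**
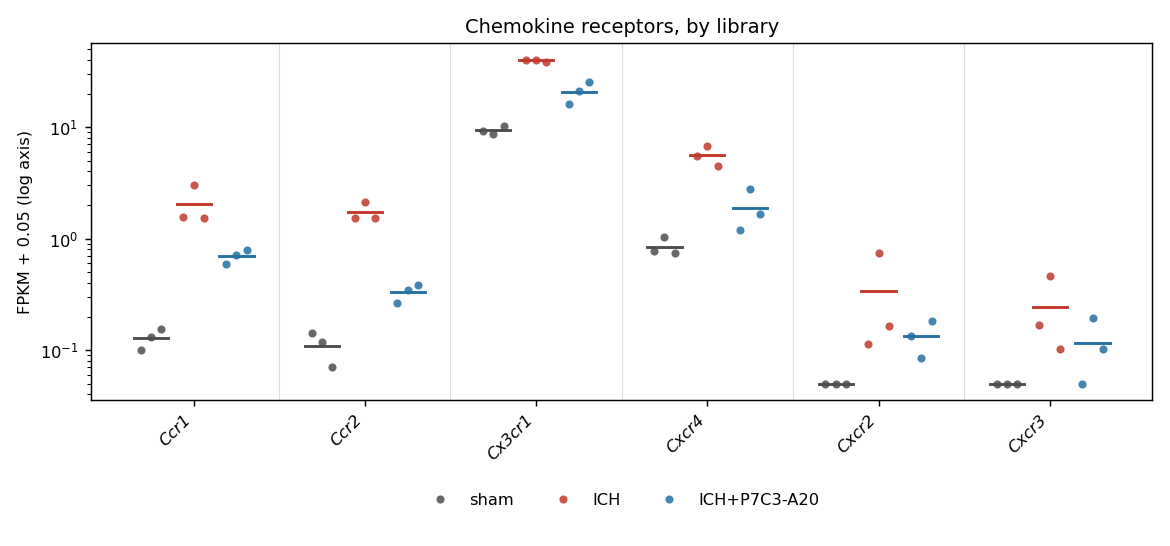
Deposited FPKM of the named receptors in each library (log axis, 0.05 added; points are mice, bars group means). Cx3cr1 is the most abundant at 8.61 to 10.2 FPKM in sham and 38.5 to 40.2 in ICH. ICH 2 is the highest ICH library for every receptor drawn, though by very little for Cx3cr1.

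The order of mean levels changed between groups. In sham it ran from Cx3cl1 (135 ± 21.1 FPKM, SD, n = 3) through Cxcl14 (30.3 ± 1.55), Ccl27a (15.8 ± 5.25) and Cx3cr1 (9.35 ± 0.809) to Cxcl12 (5.84 ± 1.33). In ICH it ran from Cx3cl1 (89.1 ± 2.63 FPKM, SD, n = 3) through Cx3cr1 (39.6 ± 1.02), Cxcl14 (32.6 ± 3.69), Ccl12 (26.2 ± 7.86), Ccl2 (15.8 ± 2.07) and Ccl3 (12.5 ± 2.36) to Ccl27a (12.01 ± 1.67). Within ICH, Ccl12 and Cxcl14, and Ccl2, Ccl3 and Ccl27a, lay within their spreads. In ICH+P7C3-A20 the order was again led by Cx3cl1 (118 ± 7.54 FPKM, SD, n = 3), Cxcl14 (42.1 ± 6.66), Cx3cr1 (20.7 ± 4.71) and Ccl27a (18.5 ± 4.54), the last pair within their spreads.

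The other 27 detected members were low, with no value above 1.17 FPKM (Cxcl5 in ICH+P7C3-A20 2). Of these, 14 were tested and none was called by edgeR in any of the 3 comparisons. Ccr7, the receptor of Ccl19 and Ccl21, was at 0.0472, 0 and 0.0743 FPKM in sham, 0.395, 0.329 and 0.352 in ICH, and at 0, 0.0885 and 0.143 in ICH+P7C3-A20. ICH was above both other groups, but neither change was called (3.05 ± 1.16, adjusted p = 0.0789, and -2.16 ± 1.10, adjusted p = 0.266). DESeq2 called the first (adjusted p = 0.03). Cxcl5 was called in ICH against sham only without sham 1, the highest sham library at 1.08 FPKM (adjusted p = 0.0224). Cxcr6, the receptor of Cxcl16, was not called in ICH against sham (adjusted p = 0.265), but was called lower in ICH+P7C3-A20 than in ICH without ICH+P7C3-A20 3 (adjusted p = 0.0405). ICH+P7C3-A20 3 held all 23 treated counts of Cxcr6, so that fit had a treated group at 0. ICH 2 held 83 of its 120 ICH counts. Among the 13 members not tested, those with no sham count included Xcr1, a dendritic cell receptor, with 20 counts in ICH (at least 6.85-fold against the floor, and at least 2-fold without ICH 2), and Ccr4, the receptor of Ccl22, with 13 (at least 4.45-fold, and at least 2-fold without ICH 2). These bounds allow for counting error in sham only and take the ICH counts as exact. They do not cover the spread between mice. Without ICH 2 both rest on 4 counts, all in ICH 3, so a smaller change is not excluded.

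A further 50 genes of the chemokine pathway, in 5 lists, were all tested. In ICH against sham 28 were called higher (15.6% of all genes) and 3 lower (10.4%). With P7C3-A20, 2 were called higher (2.69% of all genes) and 13 lower (6.05%) than in ICH, and in ICH+P7C3-A20 against sham 15 higher (4.58%). The platelet chemokine Pf4, which the symbol rule does not take, had mean levels of 0.433, 6.604 and 1.56 FPKM in sham, ICH and ICH+P7C3-A20. Its changes were 3.79 (adjusted p = 0.000174), -2.04 (adjusted p = 0.0155) and 1.74 (adjusted p = 0.0441). Of 7 atypical and related receptors, Cmklr1, a chemerin receptor, and Ccrl2 were called higher in ICH, at 2.71 (adjusted p = 0.000123) and 1.31 (adjusted p = 0.039).

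Signalling genes of leukocyte migration mostly had the direction of the inflammatory receptors. Of 18, 15 were called higher in ICH than in sham (15.6% of all genes), with a median log2 change of 2.25. In ICH+P7C3-A20, 9 were called lower than in ICH (6.05% of all genes), with a median of -0.84. They included Rac2, a leukocyte GTPase (4.02, adjusted p = 8.07e-06, and -1.46, adjusted p = 0.00918), and Dock2, its activator downstream of chemokine receptors (3.08, adjusted p = 6.58e-06, and -1.51, adjusted p = 0.00596). Of 15 G proteins, kinases and arrestins, 4 were called higher and 3 lower in ICH, shares not far from those of all genes (15.6% and 10.4%). The higher ones included the inhibitory subunit gene Gnai2 (1.12, adjusted p = 0.00254) and Rgs1, which shortens the G protein signal (4.41, adjusted p = 0.00276). The lower ones included Gnai1 (-0.89, adjusted p = 0.00023), which was called higher in ICH+P7C3-A20 than in ICH (0.66, adjusted p = 0.00829). Of 7 proteases that cut or shed chemokines, 6 were called higher in ICH (15.6% of all genes). Among them were Mmp12 (8.24, adjusted p = 0.000779), Mmp9 (2.21, adjusted p = 0.0181), and Adam17 (0.98, adjusted p = 0.00429) and Adam10 (0.62, adjusted p = 0.00267), which shed Cx3cl1 and Cxcl16.

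Markers of monocytes, macrophages and microglia had the direction of the inflammatory members. Beside the marker counts below, 15.6% of all tested genes were called higher in ICH than in sham, and 6.05% lower in ICH+P7C3-A20 than in ICH. Summed monocyte and macrophage markers were at 5.16 to 6.45 FPKM in sham, 169 to 212 in ICH, and at 25.7, 54.4 and 60.6 in ICH+P7C3-A20, with 7 of 7 called higher in ICH and 6 lower in ICH+P7C3-A20 than in ICH. Microglia markers were at 63.1 to 91.6, 253 to 304, and 107, 183 and 172 FPKM, with 6 of 6 higher in ICH and 2 lower in ICH+P7C3-A20 than in ICH. For both lists ICH+P7C3-A20 1 was the lowest treated brain, as it was for 10 of the 11 members called lower in ICH+P7C3-A20 than in ICH. Without ICH+P7C3-A20 1, 9 members were called lower. Neutrophil markers summed to 2.03 to 3.41 FPKM in sham, 12.4 to 20 in ICH, with ICH 2 the highest, and 6.16 to 11.1 in ICH+P7C3-A20. Most of the neutrophil sum was Csf3r, at means of 1.92, 11.25 and 5.49 FPKM. Of 7 tested, 3 were called higher in ICH (S100a9, Mmp8 and Csf3r), while S100a8, Ngp, Camp and Ltf were not called. In ICH+P7C3-A20 against ICH, 1 was called lower (Csf3r). Changes there were negative for 5 of the 7 and positive for 2, Ngp and Camp. T cell markers summed to 10.9 to 16.9, 8.95 to 10.1 and 5.44 to 9.22 FPKM, with Cd3d and Cd8a at 0 in sham and Cd3d at 0 in ICH+P7C3-A20. Most of that sum was Cd4, at means of 13.7, 8.42 and 6.79 FPKM, which was called lower in ICH than in sham (adjusted p = 0.0283), while Cd8a was called higher (adjusted p = 0.0166) and Cd3e, Cd3g and Trac were not called. The summed NK cell markers did not exceed 0.25 FPKM in any library, with Ncr1 at 0 in sham and ICH+P7C3-A20, and none could be tested. B cell markers were at 0.187 to 0.249, 0.784 to 1.43 and 0.279 to 0.766 FPKM, with Ms4a1 at 0 in ICH+P7C3-A20. Endothelial markers were at 21 to 33.4, 57.4 to 72.4 and 29.4 to 44.5 FPKM, with 4 of 5 called higher in ICH and 3 lower in ICH+P7C3-A20 than in ICH. Choroid plexus markers ran from 11.8 to 405 FPKM in sham, 16.3 to 2370 in ICH and 44.6 to 1600 in ICH+P7C3-A20. The part of these cell types in the chemokine values was not tested.

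**Figure D5:**
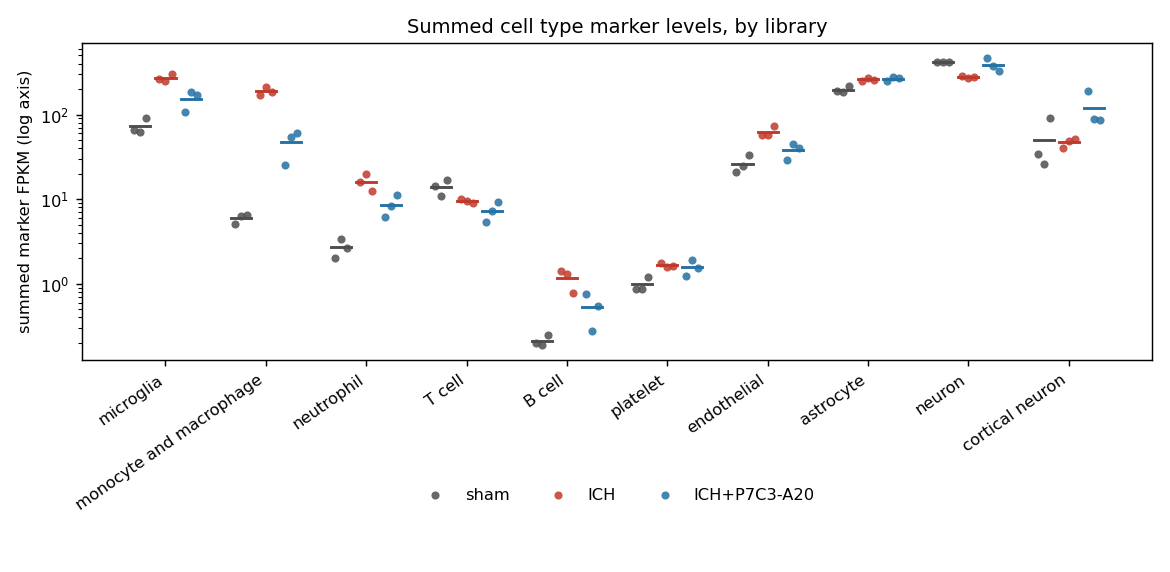
Summed deposited FPKM of the marker lists in each library (log axis; points are mice, bars group means). Monocyte and macrophage markers span 5.16 to 6.45 FPKM in sham and 169 to 212 in ICH, with ICH+P7C3-A20 between at 25.7 to 60.6, and neuron markers are lowest in ICH.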

How the data were processed

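Polyadenylated RNA of 9 mouse brains was made into dUTP-marked libraries, per the labels' protocols. The submitters' processing notes name cutadapt 1.9, HISAT2 2.0.4 and StringTie 1.3.4d. What genome build, strand setting and counting step they used is not given in the sources used here. One table was deposited by the authors, with FPKM and whole-number estimated counts per gene and library, per the file headers. Totals of 51537047 to 63324728 put the floor of 3 counts at 0.0455 to 0.0625 CPM.

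The members and all gene lists were chosen with earlier results of these data known. The test was edgeR 4.0.16 under R 4.3.3. Genes passed filterByExpr at its defaults (a count of 10, a total of 15), TMM set the scaling, and the robust quasi-likelihood fit took 3 means over 9 libraries, which leaves 6 residual degrees of freedom. Tests were two-sided and adjusted over 21900 genes. A standard error is the size of the log2 change over the root of its F statistic. Folds against a group at 0 used 3 counts over the group and took the counts of the other group as exact. P-values measure the spread between 3 mice per group. Members with a group mean of 1 FPKM or more, or a call, have every value printed, except 1 member that is in the counts and is not reported here. Alternatives were no filter, other scalings, DESeq2 1.42.0, limma 3.58.1 on log2(FPKM + 1) and log2(FPKM + 0.1), a fit of just the compared groups, the replicate number as a block, and leaving out every library in turn. Leaving out sham 3 and ICH+P7C3-A20 1 together was chosen after seeing the data. Gene positions are those of the deposited table, and 51 of 58 are identical in GENCODE M21 (GRCm38). Transcripts were compared with minimap2 2.31-r1302, keeping matches of at least 150 bases at 95% identity. Plots used matplotlib 3.10.9 (Python 3.11.15). Only the edgeR fit with TMM was first tested on simulated data. Over the 3 comparisons it called 2.99% to 8.96% of simulated 1.5-fold changes, 28.4% to 37.3% of 2-fold ones and 62.1% to 66.7% of 4-fold ones. Of its calls 5.33% to 6.41% were false. Each simulation changed 66 or 67 of 21900 genes at each fold, far fewer than were called in the data. Both the recovered and the false shares may therefore differ in the data. A member without a call may still differ between groups.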

Additional observations from a re-analysis of the deposited data

How the results depend on the processing

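In ICH against sham, 18 of 22 calls held under all alternatives run, in ICH+P7C3-A20 against ICH 6 of 15, and in ICH+P7C3-A20 against sham 9 of 18. No change that was called reversed its sign. In ICH against sham, the members called higher numbered 18 to 23 over all settings, and those called lower 2 under DESeq2 and 1 to 2 with a library left out. In ICH+P7C3-A20 against ICH, those called higher were 4, but 2 and 1 by limma on log2(FPKM + 1) and log2(FPKM + 0.1), and 0 to 3 with a library left out (0 without ICH 1 or ICH 2, 1 without ICH+P7C3-A20 1 or 3, 2 without ICH 3). Those called lower were 11, but 18 by limma on log2(FPKM + 1), and 6 to 13 with a library left out, 6 being without ICH 2. In ICH+P7C3-A20 against sham, those called higher were 18, but 11 by limma on log2(FPKM + 1), 11 with only those groups fitted, and 12 to 18 with a library left out, 12 being without ICH+P7C3-A20 3. Without sham 3 and ICH+P7C3-A20 1 together, 23 members were called higher in ICH, 13 lower and 3 higher in ICH+P7C3-A20 against ICH, and 21 higher in ICH+P7C3-A20 against sham. Over all genes, 1914 were called in ICH+P7C3-A20 against ICH, but 3476 by DESeq2, 1250 by limma on log2(FPKM + 0.1) and 571 to 1954 with a library left out. In ICH+P7C3-A20 against sham, 1165 were called, but 2109 by DESeq2, 331 and 527 by limma, 435 with only those groups, 538 to 1434 with a library left out and 2222 without the named pair. The causes were not tested.

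Limma on log2(FPKM + 1) ended calls in ICH+P7C3-A20 against sham, among them those of Ccl7 (adjusted p = 0.14), Ccr1 (0.144), Ccr2 (0.306), Cxcl1 (0.258), Cxcl2 (0.389) and Cxcl12 (0.319), those of Ccl22 (0.0612), Cxcr2 (0.139) and Cxcr3 (0.113) in ICH against sham, and those of Ccl27a (0.183) and Cx3cl1 (0.119) in ICH+P7C3-A20 against ICH. Fitting only the compared groups ended calls that included Ccl3 (0.0518), Ccl7 (0.0977), Ccr2 (0.108) and Cxcl12 (0.148) against sham and Ccl22 in ICH against sham (0.0637). Calls gained in ICH+P7C3-A20 against sham were those of Cxcr2 (0.000675), Cxcr3 (0.0494) and Cxcr4 (0.0071) by DESeq2. Ccl27b was called against ICH with only those groups fitted (0.0197), and Ccl8 in ICH against sham by limma on log2(FPKM + 1) (0.0455) and without the named pair (0.044).

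Signs changed only where the member had no call in that same comparison. In ICH against sham, Ccl25 was at 0.020 and 0.038 by limma with pseudocounts 1 and 0.1, 0.028 without the named pair and -0.13 to 0.091 with a library left out. Cxcl14 was at -0.040 without the named pair and -0.065 to 0.19 with a library left out, Ccl21d at -0.16 to 0.44 and Ccl27b at -0.37 to 1.21. In ICH+P7C3-A20 against sham, Ccl8 was at -0.0019 with no filter and -0.54 to 1.70 with a library left out. Cxcr2 against ICH was at -2.24 to 0.10.

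The labels do not say that equal numbers pair samples across groups. Same-numbered libraries deviated together at correlations of -0.128 to 0.0919, and differently numbered ones at -0.0784 to 0.192. With 3 libraries per group these correlations cannot decide whether samples were paired or shared a batch. With the replicate number as a block, 21 members were called higher and 1 lower in ICH against sham, 3 higher and 11 lower in ICH+P7C3-A20 against ICH, and 17 higher in ICH+P7C3-A20 against sham. The block ended the calls of Cx3cl1 against ICH (adjusted p = 0.0588) and of Cxcl1 (0.0558) and Cxcl2 (0.0768) against sham, and Cxcr4 gained one against sham (0.0277). At this depth, members with few sham counts have folds that rest on 1 library or on the floor.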

Other observations

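The pseudogenes left out, Ccl19-ps1 and Ccl19-ps3, had mean levels of 0.207 and 0.191 FPKM in sham, 0.382 and 0.647 in ICH, and, in ICH+P7C3-A20, 0.723 and 0.697, and neither was called in any of the 3 comparisons. Ccl19 matched them over 325 and 324 transcript bases at 99.1% and 100%.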
